A study of Mus musculus with 4 samples.

Results

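Kinesins are motor proteins that hydrolyse ATP to walk along microtubules or to take their ends apart. Mitotic kinesins build the spindle, move chromosomes and close the cell at cytokinesis, and many of them are made mainly in G2 and M phase, so in bone marrow their mRNA is highest in populations that hold many dividing cells. Transport kinesins carry vesicles, organelles and mRNA in dividing and resting cells alike, and a further group works in cilia and in Hedgehog signalling.

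The kinesin motor genes described here are the 38 gene symbols made of Kif, a number and at most 1 letter and digit, found in 71 rows of the authors' deposited signal table (62 probes), of 24278 genes on the array. By the known role of their proteins they comprised 11 mitotic kinesins, 13 transport kinesins, 6 kinesins of cilia or Hedgehog signalling, 7 others and 1 pseudogene, Kif4-ps, which the array files call Kif4b and whose sequence is close to that of Kif4. The groups were SFRP5 CLP, WT CLP, SFRP5 LSK and WT LSK, with 1 array each. SFRP5 stands for mice carrying a transgene of the secreted Wnt antagonist SFRP5, and WT for their littermates without it, both adult. LSK cells are lineage-negative, c-kit high and Sca-1 positive and hold stem cells and multipotent progenitors, whereas the CLP sort is IL7Rα positive with low c-kit and Sca-1, also without lineage markers, and was enriched for common lymphoid progenitors. The labels state neither the promoter of the transgene, the number of mice per sample nor their sex.

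The sort markers followed the gates. CLP minus LSK was -1.71 in SFRP5 and -2.33 in WT for Kit, -1.72 and -2.20 for Ly6a (Sca-1), and 2.24 and 3.03 for Il7r, all on the log2 scale. Flt3, which common lymphoid progenitors are known to carry, was lower in the CLP sort by -2.78 in SFRP5 and -2.71 in WT. The Sfrp5 probe differed by -0.08 between SFRP5 and WT in LSK and by 0.02 in CLP, and the labels do not say whether it detects the transgene. Xist was well above background on both SFRP5 arrays and on neither WT array, and the 4 Y-linked genes on the list were lower in SFRP5, so genotype and sex-linked expression cannot be told apart in these samples. Array position and group coincide too. Over the 4 arrays 65.3% to 70.1% of probes were well above background, and the 75th percentile of spot intensity was 227.2 to 290.9.

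The sequence around the transcription start differed between mitotic and transport kinesins. The cell cycle gene homology region (CHR, searched as TTTGAA or TTCGAA on both strands) is a promoter element known from genes of G2 and M phase, often with CCAAT boxes upstream. RefSeq promoters (GRCm38.p6, 250 bases before to 50 after the start) were at hand for 31 of the 38 kinesins. The CHR letters were found in 9 of 10 mitotic kinesins and in 1 of 10 transport kinesins (Kif1a), against 19.2% of all 32851 promoters. Below are 120 bases before and 30 after the start of the 5 mitotic kinesins whose sort differences are described first and which hold the letters within 30 bases of the start, with the CHR letters in capitals (TTCAAA is TTTGAA read on the other strand).
Kif11 (chr19:37376262-37376411, plus strand): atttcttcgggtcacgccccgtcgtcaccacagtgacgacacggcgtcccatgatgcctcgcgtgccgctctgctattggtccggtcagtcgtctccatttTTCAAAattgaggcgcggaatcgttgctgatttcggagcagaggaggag
Kif22 (chr7:127042391-127042540, minus strand): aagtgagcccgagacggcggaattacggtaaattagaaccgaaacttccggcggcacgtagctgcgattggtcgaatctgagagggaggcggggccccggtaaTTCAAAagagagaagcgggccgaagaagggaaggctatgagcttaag
Kif15 (chr9:122950961-122951110, plus strand): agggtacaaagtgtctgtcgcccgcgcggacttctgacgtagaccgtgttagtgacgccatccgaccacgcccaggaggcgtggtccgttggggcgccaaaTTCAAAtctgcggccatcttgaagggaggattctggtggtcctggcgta
Kif23 (chr9:61946770-61946919, minus strand): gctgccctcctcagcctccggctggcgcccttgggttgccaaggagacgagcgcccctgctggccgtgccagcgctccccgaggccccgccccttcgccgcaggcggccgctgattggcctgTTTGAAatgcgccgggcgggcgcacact
Kif4 (chrX:100625945-100626094, plus strand): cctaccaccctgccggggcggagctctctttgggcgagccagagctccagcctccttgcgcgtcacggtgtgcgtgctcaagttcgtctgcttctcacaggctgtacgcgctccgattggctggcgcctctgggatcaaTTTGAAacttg

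The same window of Kif20b holds the letters in an adjacent pair, that of Kif2c holds them farther upstream, and those of the transport kinesins Kif1c and Kif13a, shown for contrast, hold none.
Kif20b (chr19:34922238-34922387, plus strand): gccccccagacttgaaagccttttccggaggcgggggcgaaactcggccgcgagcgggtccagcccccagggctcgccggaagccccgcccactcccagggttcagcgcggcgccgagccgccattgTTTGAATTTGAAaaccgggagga
Kif2c (chr4:117178743-117178892, minus strand): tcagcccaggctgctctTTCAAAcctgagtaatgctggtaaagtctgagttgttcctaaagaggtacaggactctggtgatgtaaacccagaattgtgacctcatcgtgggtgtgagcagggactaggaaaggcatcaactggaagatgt
Kif1c (chr11:70700428-70700577, plus strand): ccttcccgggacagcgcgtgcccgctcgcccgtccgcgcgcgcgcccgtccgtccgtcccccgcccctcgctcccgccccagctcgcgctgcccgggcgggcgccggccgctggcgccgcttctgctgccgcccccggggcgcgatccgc
Kif13a (chr13:46929689-46929838, minus strand): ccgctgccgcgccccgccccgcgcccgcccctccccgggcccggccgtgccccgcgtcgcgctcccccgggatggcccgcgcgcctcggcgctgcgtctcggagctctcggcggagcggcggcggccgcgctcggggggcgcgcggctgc

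Within 30 bases of the start, 7 of the 10 mitotic kinesins and 0 of the 10 transport kinesins had the letters, against 3.13% of all promoters. CCAAT, searched on both strands, was present in 6 of 10 mitotic and 3 of 10 transport kinesins, against 37.4% of all promoters, and both motifs in 6 and 0 genes, against 7.53%. In no kinesin did a CHR match overlap a CCAAT match. Of 26 spindle and cytokinesis genes with a promoter, 19 had the CHR letters, and of 16 S phase genes 3. Kif18a, whose sort difference was among the highest of the mitotic kinesins in both genotypes, had neither motif in the window. A match is a run of letters, and binding was not measured.

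**Figure D1:**
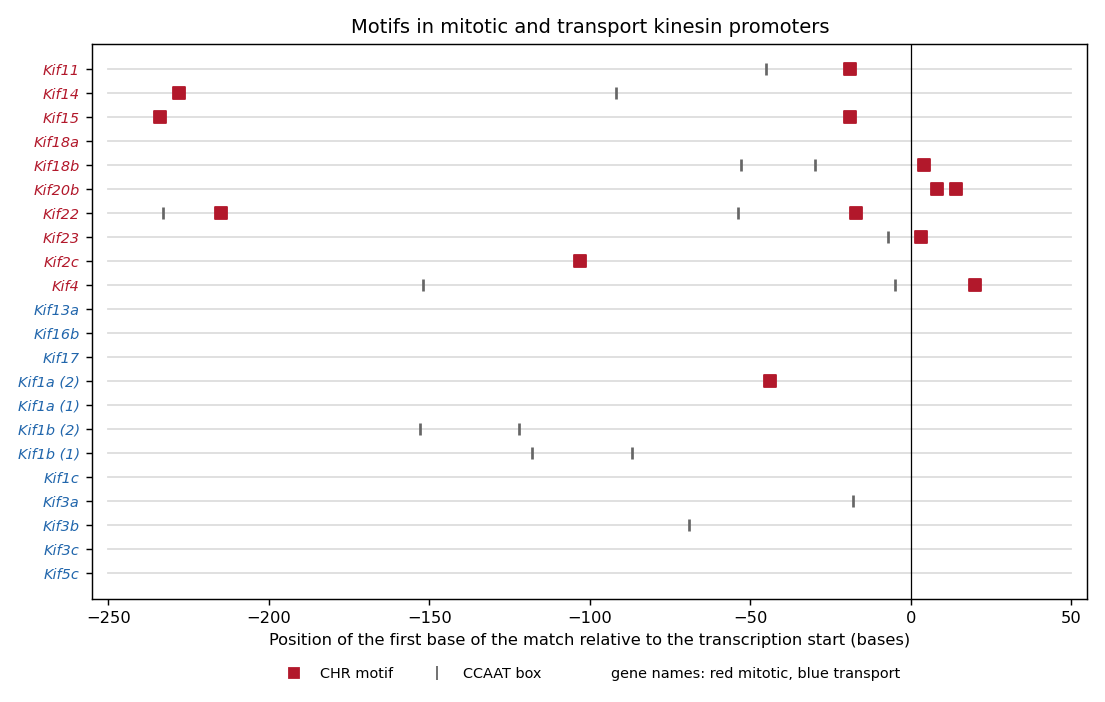
Positions of CHR letters (red squares) and CCAAT boxes (grey ticks) in RefSeq promoters of mitotic kinesins (red names) and transport kinesins (blue names), in bases from the transcription start (black line). Numbers in brackets mark genes with several promoters. In 7 mitotic kinesins a red square lies within 30 bases of the start, and in no transport kinesin.

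Of the 38 kinesins, 31 were well above background on all 4 arrays, against 62.5% of all 24278 genes, 2 on some and 5 on none (Kif1a, Kif12, Kif26b, Kif27 and Kif2b). All 11 mitotic kinesins were above background on every array. Of the 13 transport kinesins, 12 were above background on each CLP array and 11 on each LSK array. Kif1a, a motor of synaptic vesicle precursors in neurons, was below it on all 4 arrays, and Kif5c, the kinesin-1 heavy chain best known from neurons, was above it on the CLP arrays alone. Levels below are log2 values relative to each array's 75th percentile, in the order SFRP5 CLP, WT CLP, SFRP5 LSK and WT LSK, and are compared within a gene, never between genes.

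**Figure D2:**
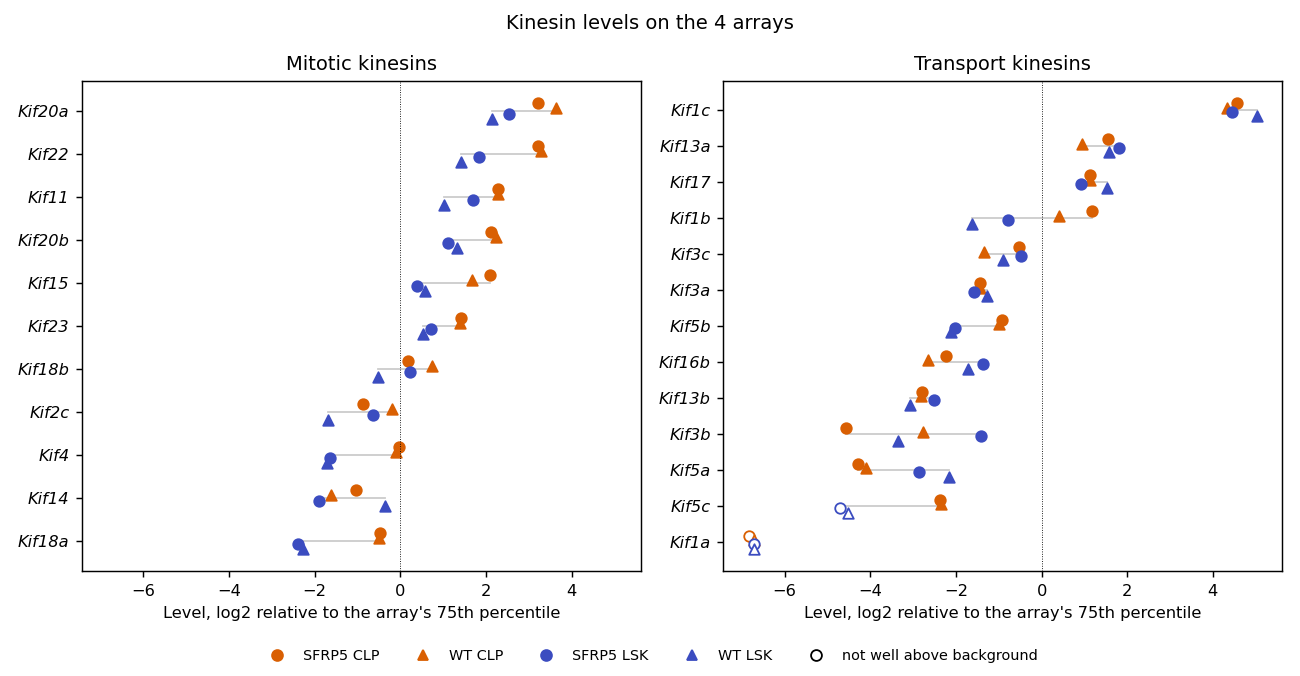
Log2 levels relative to the array's 75th percentile of the 11 mitotic (left) and 13 transport kinesins (right), each on 4 arrays (circles SFRP5, triangles WT, orange CLP, blue LSK). Open symbols were not well above background. For 8 mitotic kinesins both orange symbols lie to the right of both blue ones, and for Kif1b and Kif5b among the transport kinesins above background on all 4 arrays.

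The comparison of the sorts asks how progenitors of the CLP gate differ from LSK cells within a genotype. Of the 11 mitotic kinesins, 9 lay above 0 in CLP minus LSK in SFRP5 and 10 in WT, against 5 and 4 of the 11 measured transport kinesins. The median CLP minus LSK difference of the 11 mitotic kinesins was 0.88 in SFRP5 and 1.27 in WT, against -0.05 and -0.39 for the 11 measured transport kinesins and 0.02 in each genotype for all measured genes. In SFRP5, 4 of 11 mitotic kinesins were at least 2-fold higher and 0 lower, against 11.5% of all genes higher and 11.0% lower. In WT, 8 of 11 were higher and 1 lower (Kif14), against 17.8% of all genes higher and 14.3% lower. Among genes whose brightest array was at or above the 75th percentile, 13.1% were higher by 2-fold in SFRP5 and 9.60% lower, and 24.8% were higher in WT and 11.9% lower. With 1 array per group none of these differences has a replicate check or a test. The authors' deposited signal table moves the median of all genes by -0.19 in SFRP5 and by -0.41 in WT. On its scale 37.6% of the 2-fold calls of all genes were higher in SFRP5 and 26.6% in WT, against 51.1% and 55.4% here, and all genes at 2-fold in WT numbered 1537 higher and 4237 lower, against 2847 and 2288. The mitotic median there stayed above 0 in both genotypes, and the mitotic kinesins at 2-fold higher in WT numbered 5. The Kif14 difference in WT fell short of 2-fold with normexp background correction (-0.69) and with the mean of its probes (-0.07).

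**Figure D3:**
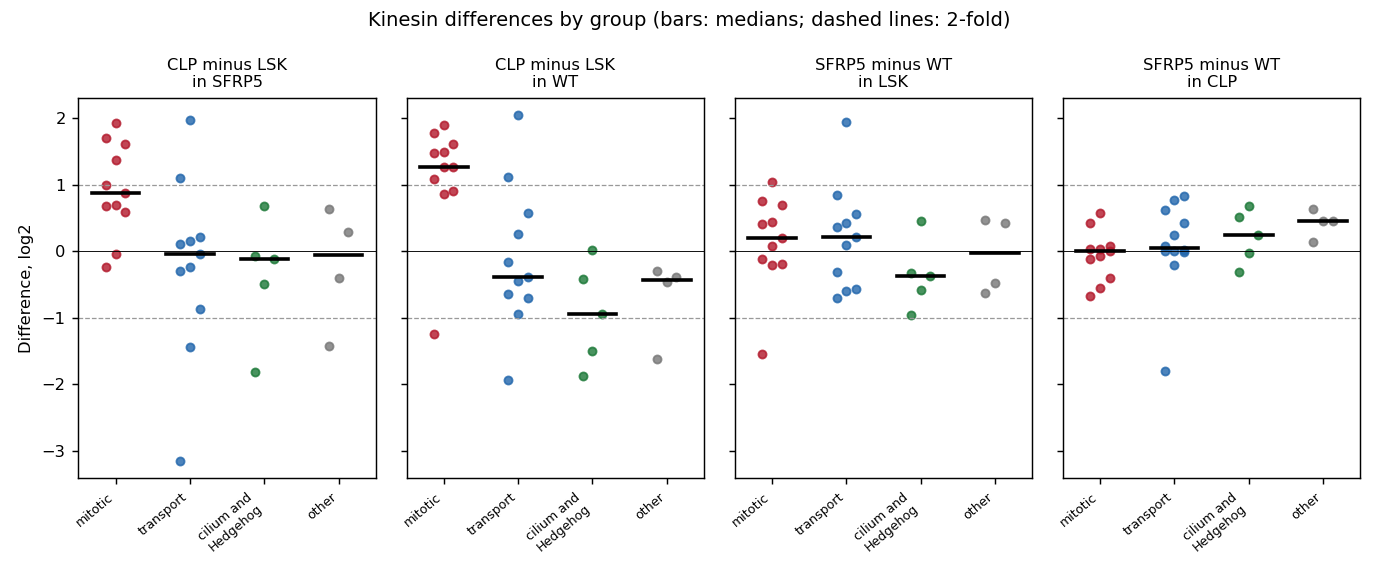
Log2 differences of each measured kinesin (points) by group in the 4 comparisons, with the median of each group (black bars) and 2-fold (dashed lines). The mitotic medians are 0.88 and 1.27 between the sorts in SFRP5 and in WT, and 0.19 and -0.0032 between the genotypes in LSK and in CLP.

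Among the motors that set up the spindle, Kif11, which pushes the spindle poles apart, stood at 2.29, 2.29, 1.70 and 1.02. Both CLP arrays were above both LSK arrays, by 1.496-fold in SFRP5 and 2.41-fold in WT, and WT LSK was the lowest. Kif15, which can stand in for Kif11 in keeping the spindle bipolar, stood at 2.09, 1.67, 0.39 and 0.58. Its CLP level was 3.23-fold higher in SFRP5 and 2.12-fold higher in WT, so here the wider gap was in SFRP5. The replicate spots within an array, the sole measure of technical spread here, differed by a median SD of 0.059 to 0.071 log2 for probes at this signal, and that spread covers neither mice, sorting nor amplification.

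Of the motors on chromosomes, Kif22, a chromokinesin that pushes chromosome arms towards the spindle equator, stood at 3.22, 3.29, 1.84 and 1.41. It was 2.59-fold higher in CLP in SFRP5 and 3.70-fold in WT. Kif4, the chromokinesin that with Prc1 sets the length of the central spindle and lies on the X chromosome, stood at -0.04, -0.11, -1.64 and -1.72. Its CLP to LSK ratio was 3.05 in SFRP5 and 3.06 in WT, the closest match between genotypes among the 11 mitotic kinesins. Kif18a, which damps the oscillations of chromosomes at the metaphase plate, stood at -0.47, -0.49, -2.40 and -2.27, or 3.81-fold and 3.43-fold higher in CLP. For both genes the arrays of a sort lay close together and the sorts far apart.

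Among the cytokinesis motors, Kif20a, which brings the chromosomal passenger complex to the central spindle, stood at 3.22, 3.63, 2.54 and 2.14, a ratio of CLP to LSK of 1.60 in SFRP5 and 2.81 in WT. Kif23, the motor of centralspindlin, stood at 1.41, 1.39, 0.72 and 0.52, or 1.62-fold and 1.82-fold higher in CLP. Kif20b, which acts at the midbody, stood at 2.11, 2.23, 1.12 and 1.32, or 1.99-fold and 1.87-fold higher. None of the 3 reached 2-fold in SFRP5, and Kif20a alone did in WT.

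For the remaining mitotic kinesins the sorts overlapped. Kif2c, which depolymerises microtubules at centromeres, stood at -0.88, -0.20, -0.64 and -1.68, and Kif18b, which trims astral microtubules, at 0.18, 0.73, 0.22 and -0.53. In both, CLP exceeded LSK by over 2-fold in WT, while the SFRP5 difference was -0.24 for Kif2c and -0.04 for Kif18b. A further Kif2c probe gave 0.75 in SFRP5 and 1.56 in WT. Kif14, which works with citron kinase in cytokinesis, stood at -1.03, -1.61, -1.91 and -0.36. It was higher in CLP in SFRP5 (0.88) and lower in WT (-1.25), where its further probe, above background on the WT arrays alone, gave 1.11.

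Both CLP arrays lay above both LSK arrays for 8 of 11 mitotic kinesins, against 31.7% of all genes above background on all 4 arrays and 42.2% of those at or above the 75th percentile. The same held for 2 of 11 transport kinesins, 0 of 5 cilium or Hedgehog kinesins and 0 of 4 others. Both CLP arrays lay below both LSK arrays for 0 mitotic, 3 transport, 4 cilium or Hedgehog kinesins and 1 other, against 26.6% of all genes and 25.0% of those at or above the 75th percentile. Under the alternatives that could be counted, the mitotic count above stayed at 8 (when probes were averaged, Kif2c took the place of Kif23), the transport count above ran from 1 to 3 and the transport count below from 3 to 6. The arrays of a sort differ in genotype, so they are not replicates. The sort difference reached 2-fold in the same direction in both genotypes for 9 of 31 kinesins, against 12.3% of all genes. Of these, Kif15, Kif18a, Kif22, Kif4, Kif1b and Kif5b were higher in CLP, and Kif5a, Kif7 and Kif21b lower.

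**Figure D4:**
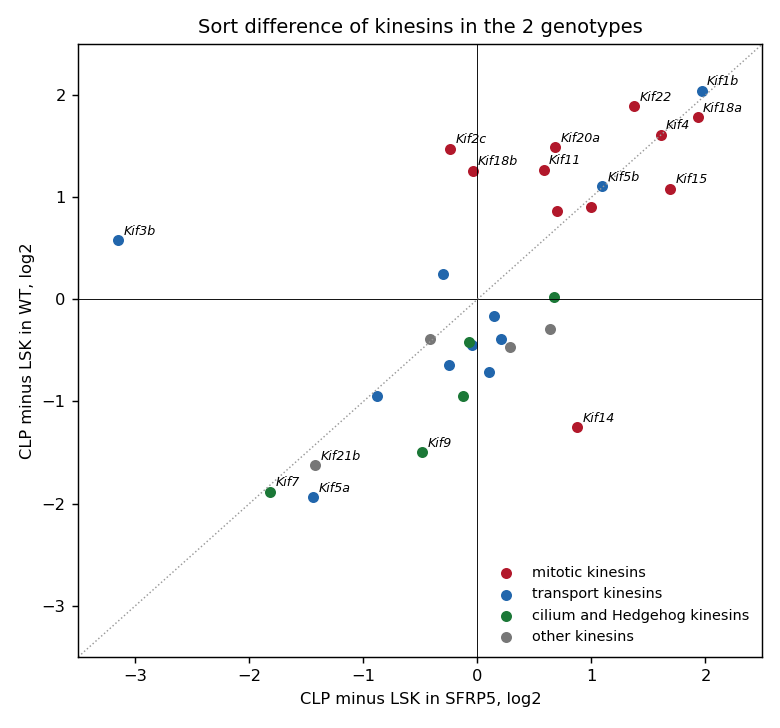
CLP minus LSK in SFRP5 (x axis, log2) against the same in WT (y axis, log2) for 31 kinesins above background on all 4 arrays, coloured by group, with equality as a dotted line. Names mark kinesins at 2-fold in at least 1 genotype. The mitotic kinesins lie at the upper right apart from Kif2c and Kif18b, at -0.24 and -0.04 in SFRP5, and Kif14, below 0 in WT.

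Other genes of the same processes moved with the mitotic kinesins. Of 30 spindle and cytokinesis partners, 11 were at least 2-fold higher and 0 lower in CLP in SFRP5, and 25 higher and 0 lower in WT, with medians of 0.89 and 1.52. Of all genes, 11.5% were higher and 11.0% lower in SFRP5, and 17.8% and 14.3% in WT. Among genes whose brightest array was at or above the 75th percentile, 13.1% were higher in SFRP5 and 24.8% in WT. Plk1, a kinase that starts spindle assembly, was 1.21 and 2.43 higher, and Ccnb1, the cyclin of mitotic entry, 1.77 and 2.20. The lowest members were Numa1 (-0.45 and -0.52) and Hmmr (-0.12 and -0.56). Of 20 S phase genes, 9 were higher and 0 lower in SFRP5, and 14 of 19 measured higher and 0 lower in WT, with medians of 0.98 and 1.46. The shares of all genes to set beside these counts are those given for the partners. The kinesins outside the symbol pattern differed in size and direction. Cenpe, the kinetochore kinesin, stood at 2.39, 2.49, 1.68 and 1.13, and Kifc1, the minus-end spindle motor, at 0.38, 0.42, 0.29 and 0.27, a difference of 0.08 in SFRP5 and 0.15 in WT. Kifc5b stood at -4.41, -3.25, -2.60 and -4.21 on a dim probe, a difference of -1.82 in SFRP5 and 0.95 in WT.

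Marker genes of several blood cell lineages, lymphoid and other, also moved with the sort. Of 9 measured erythroid markers, 8 were at least 2-fold higher in CLP in each genotype and 0 lower. Of all genes, 11.5% were higher in SFRP5 and 17.8% in WT. The summed level of the erythroid list, in units of the 75th percentile, was 397.6, 664.3, 47.1 and 53.1 on the 4 arrays. Myeloid progenitor markers summed to 337.8, 305.3, 80.9 and 57.5, with Cebpe not above background on LSK. Basophil and mast cell markers summed to 42.6, 57.8, 2.17 and 1.41, with Fcer1a, Ms4a2 and Cma1 not above background on LSK and Mcpt4 not on CLP. B lineage markers summed to 261.6, 192.0, 120.3 and 73.5, with Ebf1 not above background on LSK. The largest part of each sum was Dntt, which differed between the sorts by 0.44 in SFRP5 and 0.59 in WT. Of 9 measured B lineage markers, 8 were at least 2-fold higher in CLP in each genotype and 0 lower, with medians of 3.85 and 3.83. Neutrophil markers summed to 15.5, 23.3, 6.75 and 2.73. Megakaryocyte markers summed to 7.73, 8.01, 23.5 and 21.1 and T lineage markers to 7.32, 7.08, 9.54 and 12.9, where Cd3g was above background on no array. The part of these cell types in the kinesin differences was not tested. In bulk RNA, more dividing cells and more kinesin RNA per dividing cell cannot be told apart.

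Of 11 measured transport kinesins, 2 were at least 2-fold higher and 2 lower in CLP in SFRP5, against 11.5% and 11.0% of all genes. In WT 2 were higher and 1 lower, against 17.8% and 14.3%, so these shares are near those of all genes. When all probes of a gene were averaged, 0 were higher in either genotype. In WT 4 were lower by the authors' deposited signal table. Kif1b, whose isoforms carry mitochondria and synaptic vesicle precursors, stood at 1.18, 0.41, -0.79 and -1.63, or 3.91-fold higher in CLP in SFRP5 and 4.12-fold in WT. Its other probe was dim and went the other way in SFRP5 (-0.98), and it was below background on WT CLP. With the mean of both probes the WT difference turned to -0.65.

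The kinesin-1 heavy chains, which pull vesicles and mitochondria with light chains, did not move together. Kif5b, the heavy chain of most tissues, stood at -0.92, -1.002, -2.02 and -2.11, or 2.14-fold and 2.15-fold higher in CLP, and SFRP5 was 0.09 above WT in LSK and 0.08 in CLP. Its other probe gave -0.31 in SFRP5 and 0.19 in WT. Kif5a, a neuronal heavy chain, stood at -4.30, -4.09, -2.85 and -2.15 and was 2.72-fold lower in CLP in SFRP5 and 3.83-fold lower in WT. Its probe has 10 spots per array, with an SD of 0.35, 0.25, 0.12 and 0.11 log2 in the order of the levels. Kif5c stood at -2.36 on SFRP5 CLP and -2.34 on WT CLP and was at least 5.07-fold higher in CLP in SFRP5 and at least 4.52-fold higher in WT.

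The kinesin-2 subunits differed from each other as well. Kif3a, which pairs with Kif3b or Kif3c, was nearly level at -1.44, -1.43, -1.58 and -1.27. Kif3c stood at -0.52, -1.34, -0.47 and -0.89, with the sort differences at -0.05 in SFRP5 and -0.45 in WT. Kif3b stood at -4.57, -2.77, -1.42 and -3.35, so SFRP5 CLP was lowest and SFRP5 LSK highest, a CLP minus LSK difference of -3.15 in SFRP5 and 0.58 in WT. Its further probe stood at -2.60, -3.79, -2.74 and -3.57, with sort differences of 0.14 and -0.22, so the 2 probes of Kif3b disagree. Kif17, a dendritic kinesin-2 of neurons, stood at 1.14, 1.14, 0.93 and 1.53, and none of its sort differences reached 2-fold on this probe. Its further probes gave sort differences of 0.92 and 0.35 in SFRP5 and of -2.13 and -0.85 in WT.

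Of the vesicle and endosome motors Kif16b, Kif13a, Kif1c and Kif13b, none reached 2-fold between the sorts on its brightest probe. Kif16b, which moves early endosomes, stood at -2.23, -2.66, -1.36 and -1.72, or 1.84-fold lower in CLP in SFRP5 and 1.92-fold in WT. Kif13a, which moves recycling endosomes, stood at 1.56, 0.94, 1.80 and 1.58, with both CLP arrays just below both LSK arrays. Kif1c, a vesicle motor, stood at 4.56, 4.32, 4.46 and 5.03, with WT LSK highest. Its further probes gave sort differences of 0.47 and -1.06 in SFRP5 and of -0.94 and 0.28 in WT, so they disagree in direction. Kif13b stood at -2.80, -2.81, -2.50 and -3.06. For Kif1c and Kif13b the sorts overlapped.

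The partners of the transport motors showed no common shift either. Of 16 kinesin light chains and cargo adaptors, 0 were at least 2-fold higher and 2 lower in CLP in SFRP5, and 1 higher and 2 lower in WT, with medians of -0.08 and 0.19. Of all genes, 11.5% were higher and 11.0% lower in SFRP5, and 17.8% and 14.3% in WT. The counts lower are near those shares, and the counts higher are below them. Trak2, an adaptor of mitochondria, was 0.86 higher in SFRP5 and 1.999 higher in WT, and Klc4, a light chain, stood at -0.41 and -1.92.

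Of 5 measured kinesins of cilia and Hedgehog signalling, 1 was at least 2-fold lower in CLP in SFRP5, against 11.0% of all genes, and 2 in WT, against 14.3%. None was 2-fold higher, and the medians were -0.12 and -0.94. Kif7, which regulates Gli factors at the cilium tip, stood at -3.45, -3.97, -1.63 and -2.08, or 3.53-fold lower in CLP in SFRP5 and 3.69-fold in WT. Kif9, a motor of motile cilia, stood at -1.81, -2.48, -1.32 and -0.98, a difference of -0.49 in SFRP5 and -1.50 in WT, and a further probe gave -0.66 and -0.84. Another Kif9 probe, below background on WT CLP, gave -2.15 in SFRP5. Kif19a, which shortens cilia, stood at 2.87, 2.63, 2.996 and 3.58, and Kif6 at -1.66, -1.64, -1.59 and -1.22. Kif24, which holds back the growth of cilia, stood at -1.04, -0.72, -1.71 and -0.74 and was higher in CLP in SFRP5 by 0.67 and level in WT (0.02).

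Of the other kinesins, Kif21b, which limits microtubule growth, stood at -0.23, -0.85, 1.197 and 0.77 and was 2.68-fold lower in CLP in SFRP5 and 3.08-fold lower in WT. Kif21a stood at -1.92, -2.37, -1.51 and -1.98, and Kif26a, a kinesin without motor activity, at -2.45, -2.58, -2.74 and -2.11. Kif2a, a depolymerase that acts at spindle poles and in neurons, stood at 4.15, 3.70, 3.52 and 3.99, with a sort difference of 0.64 in SFRP5 and -0.29 in WT. Its further probes gave 0.74 and 0.17 in SFRP5 and 0.32 and 0.26 in WT. Counting Kif2a and Kif2b as mitotic left 8 mitotic kinesins at 2-fold in WT and 4 in SFRP5. Kif4-ps passed the background flag on SFRP5 LSK alone, and where a probe lies in shared sequence the signals of Kif4 and Kif4-ps cannot be told apart.

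The sort difference, taken without its sign, was larger in WT than in SFRP5 for 8 of 11 mitotic kinesins and for 23 of 31 kinesins above background on all 4 arrays, against 63.1% of all such genes. The sort difference had the same sign in both genotypes for 8 of 11 mitotic, 6 of 11 transport, 5 of 5 cilium or Hedgehog and 2 of 4 other kinesins, against 69.2% of all such genes. The difference between the genotypes' sort differences was not tested.

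The genotype comparison asks which genes differ with the SFRP5 transgene within a sort. Few kinesins differed by 2-fold. In LSK, 2 of 31 measured kinesins were at least 2-fold higher in SFRP5 (Kif2c and Kif3b) and 1 lower (Kif14), against 6.57% of all genes higher and 7.17% lower (6.25% and 3.38% of genes whose brightest array was at or above the 75th percentile). In CLP, 0 of 32 were higher and 1 lower (Kif3b), against 4.25% and 4.30% of all genes (2.80% and 2.16% of those at or above the 75th percentile). These shares are near or below those of all genes. The Kif2c difference in LSK fell short of 2-fold in the authors' deposited signal table (0.91), with normexp (0.89) and with the mean of its probes (0.84), and that of Kif14 with normexp (-0.99). The Kif3b difference fell short of 2-fold with normexp in both sorts, and with the mean of its probes in CLP. Its further probe gave 0.82 in LSK and 1.19 in CLP, where the brightest probe gave -1.80. The mitotic median was 0.19 in LSK and -0.0032 in CLP, the transport median 0.22 and 0.04, and that of all genes 0.02 and -0.04. In the authors' deposited signal table the median of all genes in LSK moves by -0.13 and the mitotic and transport medians are 0.06 and 0.09.

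Within LSK, the mitotic kinesins above 0 numbered 7 of 11. Of all genes 8280 of 16124 lay above 0. Of genes whose brightest array was at or above the 75th percentile 5627 of 9101 did, and 7 of 11 is near that share. Kif11 was 0.69 higher in SFRP5, Kif18b 0.75 and Kif22 0.44, while Kif15 and Kif20b were at -0.19 and -0.20. The spindle and cytokinesis partners lay above 0 in 28 of 30 cases, with a median of 0.56, and 2 reached 2-fold (Anln 1.498 and Prc1 1.11). That count at 2-fold is near the 6.57% of all genes. Within CLP, 5 of 11 mitotic kinesins and 13 of 30 partners lay above 0, against 7423 of 15941 genes. None of them reached 2-fold in either direction, against 4.25% of all genes higher and 4.30% lower. Genes whose brightest array was at or above the 75th percentile had a median of 0.17 in LSK and -0.02 in CLP, so bright genes as a class also lay higher in SFRP5 LSK.

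Both SFRP5 arrays lay above both WT arrays for 3 of 31 kinesins (Kif13b, Kif3c and Kif21a), against 8.85% of all genes and 9.59% of those at or above the 75th percentile, and below them for 2 (Kif24 and Kif3a), against 11.7% and 6.49%. Both counts are near or below those shares. None of these genes was a mitotic kinesin. In CLP, Kif13b differed by 0.0091 and Kif3a by -0.0060, less than the median SD of replicate spots at their signal (0.10 to 0.12). The further Kif3a probe was 0.18 higher in SFRP5 in LSK. Kif3c was 0.42 higher in SFRP5 in LSK and 0.82 in CLP, and Kif21a 0.47 and 0.45. Kif1b was 0.84 and 0.77 higher in SFRP5 in LSK and in CLP, although its level on the WT CLP array still exceeded that on SFRP5 LSK.

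Probes of the same gene tell how far a value belongs to the gene. Of the 38 kinesins, 17 had several probes, and 24 further probes were set beside the brightest. Of these, 14 were measured between the sorts in SFRP5 and 8 had the same direction as the brightest probe, and in WT 7 of 13 did. Between the genotypes 10 of 14 agreed in direction in LSK and 9 of 12 in CLP. Over all genes with several probes 66.6% agreed in SFRP5 and 71.9% in WT between the sorts, and 61.4% in LSK and 61.6% in CLP between the genotypes. Those percentages take only the second brightest probe of each gene, whereas the kinesin counts take every further probe. The kinesin counts and the percentages are therefore not measured alike. A further Kif17 probe was 2.73 higher in SFRP5 CLP than in WT CLP, where the brightest probe showed no difference. Of the mitotic kinesins, 8 have 1 probe, so their values have no second probe behind them.

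**Figure D5:**
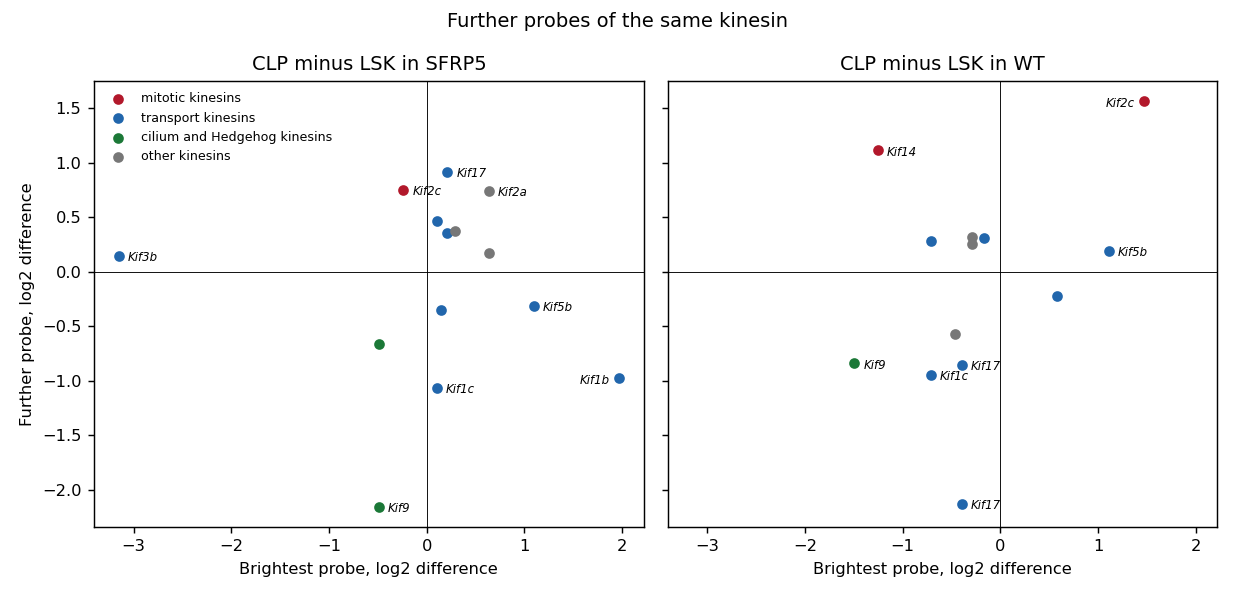
Log2 difference between CLP and LSK of further probes (y axis) against the brightest probe of the same kinesin (x axis) in SFRP5 (left, 14 probes) and WT (right, 13 probes). Names are shown for most probes at 0.7 or beyond on either axis. Kif2c lies above 0 on both axes in WT, while Kif14 in WT and Kif1b and Kif5b in SFRP5 have probes of opposite sign.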

How the data were processed

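RNA of 4 sorted bone marrow samples was hybridised in 1 colour (Cy3) to 1 Agilent array each, and the 4 arrays lay on 1 slide per the file headers. The deposited scanner files hold spot intensity that the authors' Agilent Feature Extraction 10.10.1.1 had background-subtracted and detrended within each array, per the file headers. The submitters' processing notes give the version as 10.10. The authors' deposited signal table holds the same intensity times 1 factor per array (4.91, 5.86, 5.85 and 6.42 for SFRP5 CLP, WT CLP, SFRP5 LSK and WT LSK, computed here), and the authors' deposited log2 ratio table was not used.

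Here the log2 of the processed intensity of 59305 spots outside the controls was taken and each array's 75th percentile subtracted. Spots flagged as outliers (128 to 160 per array) were left out, the remaining spots of a probe were averaged, and no spot was saturated. Each gene was represented by its brightest probe over the 4 arrays. Gene names were brought up to date through Entrez IDs in a mouse RefSeq table (GRCm38.p6), and promoter sequences came from RefSeq on the same build. Genes count as measured between a pair of arrays if the scanner software flags the probe as well above background on each. A gene flagged on 1 array alone got a lower bound of its fold, against the dim array's lowest flagged signal or its own reading, whichever was higher.

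All symbols of the pattern were described, and of each other gene list the counts, the median and up to 2 highest and 2 lowest members. The members and the lists were chosen with earlier results of these data known. Alternatives were the authors' deposited signal table, quantile and cyclic loess normalization and normexp background correction (limma 3.58.1 in R 4.3.3, offset 50), the filter on dim probes, the mean of a gene's probes, other group memberships, the mean of a group, and 1.5-fold. Normexp was run on the median spot signal. Each group has 1 array, which leaves no residual spread and thus no p-value or standard error, and limits the precision. A fit of genotype plus sort would leave 1 residual degree of freedom and assumes that the genotype difference is the same in both sorts. It was not run. Tables were handled with Python 3.11.15 and pandas 2.3.3, and the steps were tested on simulated data.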

Additional observations from a re-analysis of the deposited data

Results flagged for a closer look

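For 4 kinesins the genotype difference had opposite signs in the sorts, with at least 0.5 log2 on each side, and for 2 of them the sort difference had opposite signs in the genotypes. Both kinds of difference come from the same 4 array values of a gene, so they are not separate observations. None of these differences between groups was tested, since each group has 1 array. For Kif14, SFRP5 minus WT was -1.55 in LSK and 0.58 in CLP, while CLP minus LSK was 0.88 in SFRP5 and -1.25 in WT. Its further probe gave 1.11 for CLP minus LSK in WT and was below background on both SFRP5 arrays. For Kif3b, SFRP5 minus WT was 1.93 in LSK and -1.80 in CLP, while CLP minus LSK was -3.15 in SFRP5 and 0.58 in WT. Its further probe gave 0.82, 1.19, 0.14 and -0.22 in the same order. For Kif2c, SFRP5 minus WT was 1.04 in LSK and -0.67 in CLP, and its further probe gave 0.65 and -0.16. For Kif18b, which has 1 probe, SFRP5 minus WT was 0.75 in LSK and -0.55 in CLP.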

How the results depend on the processing

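No paired analysis was possible because the labels give no replicate numbers that could pair arrays. A fit of genotype plus sort, which sets the sorts side by side within each genotype, was left out. The median sort difference of mitotic minus that of transport kinesins stayed above 0 in both genotypes under every alternative, from 0.59 to 1.15 in SFRP5 and from 1.24 to 1.73 in WT, and the same 8 mitotic kinesins had both CLP arrays above both LSK arrays under every scaling, and 7 of them with probe means. For mitotic minus transport, 2 alternatives could not move the value. The authors' table applies 1 factor per array, and requiring signal above background on all 4 arrays kept the same genes. The causes of the shifts below were not tested. In CLP minus LSK in WT, the mitotic median of 1.27 became 0.86 in the authors' deposited signal table, 1.04 with quantile, 1.07 with cyclic loess, 1.02 with normexp and 0.98 relative to the median of bright genes (brightest array at or above its 75th percentile), an alternative chosen after seeing the data, and the count of mitotic kinesins at 2-fold higher fell to 5 in the authors' table. There the transport median became -0.81 in the authors' table, -0.26 with quantile, -0.23 with normexp, -0.17 with no filter on dim probes and -0.68 relative to bright genes, and mitotic minus transport became 1.30 with quantile, 1.39 with cyclic loess, 1.26 with normexp, 1.44 with no filter and 1.24 with means. In CLP minus LSK in SFRP5, the mitotic median became 0.69 in the authors' table, 0.51 with normexp, 0.99 with the mean of probes and 0.77 relative to bright genes, the transport median -0.24 in the authors' table, -0.15 with quantile and -0.16 relative to bright genes, and mitotic minus transport 0.59 with normexp, 1.097 with the mean of probes and 1.15 with means. At 1.5-fold, 8 mitotic kinesins in place of 4 were higher there. In SFRP5 minus WT in LSK, the mitotic median became 0.063 in the authors' table, 0.080 with the mean of probes and 0.020 relative to bright genes, the transport median 0.089, 0.34, 0.076, 0.091 and 0.046 in the authors' table, with quantile, with normexp, with no filter and relative to bright genes, and mitotic minus transport 0.12 with normexp, 0.10 with no filter and -0.14 with the mean of probes. In SFRP5 minus WT in CLP, the mean of probes gave 0.40 for transport and -0.47 for mitotic minus transport. Kif1b in CLP minus LSK in WT turned to -0.65 with the mean of probes. Of 29 kinesin calls at 2-fold, 29 kept their direction under every scaling and 28 with the mean of probes, and 15 (normexp) to 28 (quantile) stayed past 2-fold under another scaling. Over all genes, normexp called 171 to 1520 higher and 108 to 1002 lower per comparison where it moved a count by over 1.5 times, no filter 1686 to 3200 and 2035 to 4248, and 1.5-fold 1800 to 4745 and 2033 to 4241. In SFRP5 minus WT in LSK, 47.8% of all 2-fold calls were higher, against 33.4% in the authors' table, 63.4% with cyclic loess, and 59.1% with quantile and with normexp. In CLP the share was 49.7%, against 60.1% in the authors' table and 61.3% with normexp. Dim probes limit Kif3b, Kif5a, Kif7 and Kif13b, since replicate spots below -3 differ by a median SD of 0.33 to 0.42 log2.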

Other observations

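Tubulins, the subunits of the microtubule track, were measured for 17 genes on all 4 arrays. In CLP minus LSK their median was 0.71 in SFRP5, with 5 at least 2-fold higher and 0 lower (11.5% and 11.0% of all genes), and 0.66 in WT, with 7 higher and 1 lower (17.8% and 14.3%). Tubb2a was 1.39 higher in SFRP5 and 2.11 in WT, and Tubg1, the gamma-tubulin that nucleates microtubules, 0.99 and 1.34. Tubb1, the beta-tubulin of platelets, was lower in SFRP5 than in WT, by -2.84 in LSK and -2.08 in CLP.

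Cytoplasmic dynein and dynactin, the motor that walks the other way along microtubules and its cofactor, had 22 genes on the array. Their median CLP minus LSK difference was 0.26 in SFRP5, with 0 of 19 at 2-fold in either direction, and 0.69 in WT, with 6 of 21 higher and 1 lower. Of all genes, 11.5% were higher and 11.0% lower in SFRP5, and 17.8% and 14.3% in WT. Among genes whose brightest array was at or above the 75th percentile, 24.8% were higher in WT, and 6 of 21 is near that share. In LSK the median SFRP5 minus WT difference was 0.47, with 1 of 20 higher (Actr1b, 1.12) and 0 lower, at or below the 6.57% and 7.17% of all genes. Intraflagellar transport genes, whose products form the trains that kinesin-2 pulls into cilia, had medians of 0.10 in SFRP5 (2 of 12 higher and 2 lower) and -0.27 in WT (3 of 13 higher and 1 lower) for CLP minus LSK, against the same shares of all genes as for the tubulins. Ift88 was lower in CLP by -1.57 in SFRP5 and by -0.996 in WT, whereas Ift27 was higher by 1.11 and 1.24.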
